A study of Mus musculus with 7 samples.

Results

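The Iroquois homeobox family of the mouse has 6 genes, Irx1, Irx2, Irx3, Irx4, Irx5 and Irx6, and each was found by its symbol as 1 row of a table of 55536 Ensembl genes. RNA was counted in whole brains of C57BL/6 mice, taken at birth (postnatal day 0) from untreated littermates of both sexes. There were 4 wild-type brains (2 males, 2 females) and 3 Setd2SRI/wt brains (1 male, 2 females), which carry the substitution R2483H of the Setd2 SRI domain on 1 of both alleles. Setd2 encodes the enzyme that places the trimethyl mark on lysine 36 of histone H3 in transcribed genes, and the SRI domain binds RNA polymerase II. The mutants thus keep a wild-type allele, and litter membership of single animals is not given in the sources used here. Where values of same-sex libraries stand as a pair below, replicate 1 comes first.

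Iroquois proteins are transcription factors of the TALE class, whose homeodomain is longer than the usual one by an insertion between its helices. In vertebrate embryos they help to divide the neural plate into regions. In the brain they mark the caudal parts (thalamus, midbrain, hindbrain, cerebellum) more than the cortex. The genes lie in 2 clusters that arose by duplication. Irx1, Irx2 and Irx4 are on mouse chromosome 13 (71957921 to 73269608, mm10), and Irx3, Irx5 and Irx6 are on chromosome 8 (91798525 to 92680956).

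The homeobox is where the 6 genes resemble each other most, and it decides whether a short read can be told apart between them. The 96 bases below come from the GENCODE M21 transcripts and end in the codons of the third helix, the part of the homeodomain that contacts DNA. Capitals mark the 14 positions at which the 6 genes are not all alike, and the other 82 are shared by all 6.
Irx1: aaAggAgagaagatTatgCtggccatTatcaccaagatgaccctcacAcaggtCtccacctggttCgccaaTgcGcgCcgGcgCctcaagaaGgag
Irx2: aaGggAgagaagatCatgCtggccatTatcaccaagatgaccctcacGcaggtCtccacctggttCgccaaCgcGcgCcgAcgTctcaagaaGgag
Irx3: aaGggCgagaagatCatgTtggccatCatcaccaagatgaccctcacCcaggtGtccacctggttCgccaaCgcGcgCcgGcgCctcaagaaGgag
Irx4: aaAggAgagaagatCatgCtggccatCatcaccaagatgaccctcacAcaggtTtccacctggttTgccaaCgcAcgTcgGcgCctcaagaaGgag
Irx5: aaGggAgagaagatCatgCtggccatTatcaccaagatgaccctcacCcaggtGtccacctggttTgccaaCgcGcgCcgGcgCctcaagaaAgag
Irx6: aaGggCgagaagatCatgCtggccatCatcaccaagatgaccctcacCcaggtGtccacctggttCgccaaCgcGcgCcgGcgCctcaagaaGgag
These stretches are exonic and coding. On chromosome 13 they are chr13:71959998-71960093 (minus strand, exon 2 of Irx1), chr13:72630751-72630846 (plus, exon 2 of Irx2) and chr13:73267610-73267705 (plus, exon 5 of Irx4). On chromosome 8 they are chr8:91800502-91800597 (minus, exon 2 of Irx3), chr8:92359714-92359809 (plus, exon 2 of Irx5) and chr8:92677323-92677418 (plus, exon 4 of Irx6). Irx3 and Irx6 had 95 of 96 bases in common, and the other pairs 87 to 92. Over whole transcripts the longest exact run shared by Irx3 and Irx6 was 88 bases, and that of Irx2 and Irx5 was 65 bases. The 13 remaining pairs shared runs of 23 to 50 bases. The reads were 76 bases long, so single reads from 13 windows of Irx3 and Irx6 match both genes. For Irx1, Irx2, Irx4 and Irx5, 0 windows of 76 bases occurred in the transcripts of any other gene.

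The family was rare RNA in these libraries. Libraries held 4192021 to 16064644 counts, of which the 6 genes together took 12 to 198. Irx2 had 261 counts over the 7 libraries, Irx1 152, Irx3 146, Irx5 64, Irx6 21 and Irx4 5. Of the 6, the 4 genes Irx1, Irx2, Irx3 and Irx5 passed the filter on low counts and were among the 17260 genes tested, and Irx4 and Irx6 did not pass it. The libraries wild-type male 1 and wild-type female 2 stood apart from the rest in tissue content. All 15 genes of a hindbrain and cord list, most of them Hox genes, had counts in wild-type male 1, with a summed 41.4 CPM (counts per 1000000 of the TMM-scaled library size), against 0 to 0.720 CPM in the other 6 libraries. Wild-type male 1 also had the lowest sum of choroid plexus genes, 193 CPM against 592 to 937 CPM in the other 6 libraries. Pituitary genes summed to 32.2 CPM in wild-type female 2, to 15.6 CPM in Setd2SRI/wt female 1 and to between 4.03 and 8.09 CPM elsewhere. Pan-neuronal genes such as Snap25 and Map2 summed to between 5600 and 7102 CPM in every library.

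Per length of exon, Irx2 was the highest member in wild type, with 1.35 ± 0.504 CPM per kb (SD, n = 4). Irx3 followed with 0.851 ± 0.474 CPM per kb and Irx1 with 0.837 ± 0.0860 CPM per kb. Irx2 exceeded Irx1 in 4 of 4 wild-type libraries and Irx3 in 3 of 4, while Irx1 and Irx3 each led in 2 of 4, so this pair did not differ beyond its spread. Irx5 came next with 0.319 ± 0.144 CPM per kb, below Irx2 and Irx1 with no overlap of the library ranges. Irx6 had 0.102 ± 0.0562 and Irx4 0.0251 ± 0.0502 CPM per kb. In the 3 mutant libraries the order was another one: Irx1 led with 0.551 ± 0.206 CPM per kb, followed by Irx3 with 0.344 ± 0.211 and Irx2 with 0.230 ± 0.0928. Irx1 exceeded Irx2 and Irx3 in 3 of 3 mutant libraries. Irx2 lay above Irx3 in 1 of 3 and above Irx5 in 2 of 3, so the order below Irx1 varied between mutant libraries.

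**Figure D1:**
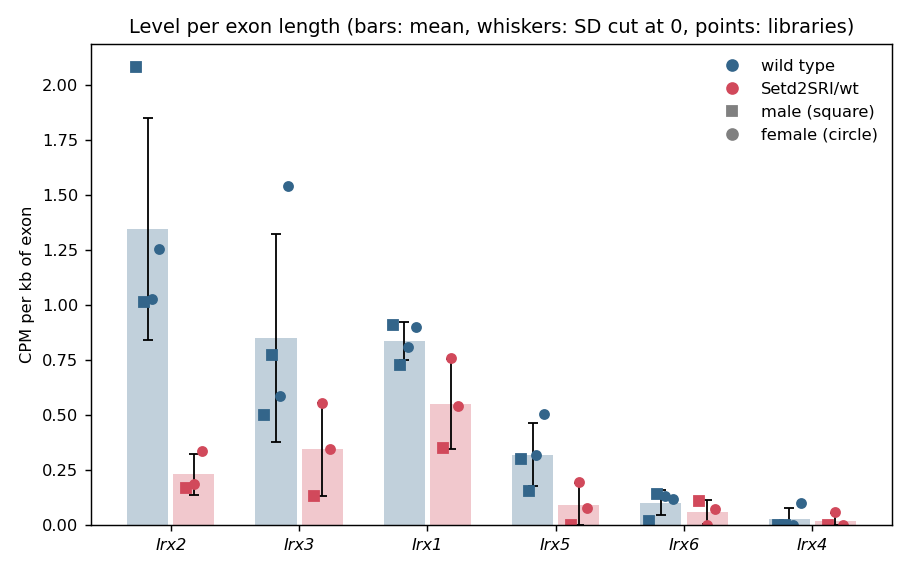
Level of each Irx gene per kb of exon (y axis, CPM per kb) in wild type (blue) and Setd2SRI/wt (red); bars are means, whiskers are SD drawn no lower than 0, and each point is 1 library (squares male, circles female). Irx2 is the highest gene in wild type at 1.35 CPM per kb and lies at 0.230 in the mutants, below Irx1 at 0.551.

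The family was chosen by the genotype comparison, because Irx2 stood at rank 4 of 17260 genes by p-value for genotype in an edgeR fit with sex in the model, just outside the adjusted threshold of 0.05 (adjusted p = 0.0626). Genotype values of the members are therefore a description of how the family was chosen, without a test, and support nothing. As each library pools all cells of a brain, fewer cells of a type and less RNA per cell cannot be told apart. In that fit 0 of the 4 tested members passed, against 0.0174% of all genes tested. At an unadjusted p under 0.05 it was 3 members (Irx2, Irx3 and Irx5), all lower in the mutants, where 5.11% of all genes tested were. DESeq2 called 1 member, Irx2, and 0.371% of all genes tested. It gave no adjusted p for Irx1, Irx3 and Irx5, so Irx2 was the only member it could call.

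Irx2, which in chick takes part in forming the cerebellum, had 6.84 and 3.33 CPM in the wild-type males and 3.37 and 4.12 CPM in the wild-type females. Among the mutants the male had 0.550 CPM and the females had 0.613 and 1.11 CPM. All 3 mutant libraries lay below all 4 wild-type libraries. The same was true of 4.08% of all genes tested, and of the tested members it was true of Irx2 alone. The group means were 4.42 ± 1.66 CPM (SD, n = 4) and 0.756 ± 0.305 CPM (SD, n = 3), so the mutant mean was 17.1% of the wild-type mean, and the fitted log2 fold change was -2.33 ± 0.38 (SE). Mutant levels rested on 3, 4 and 14 counts. Their exact 95% Poisson intervals, which cover counting error only, reached up to 1.61, 1.57 and 1.86 CPM, and the lowest wild-type interval, from 14 counts in the shallow wild-type male 2, began at 1.82 CPM, so these intervals touched only at their ends.

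The highest Irx2 level came from the library with Hox transcripts. Without wild-type male 1 the remaining wild-type libraries had 3.61 ± 0.446 CPM (SD, n = 3), the mutant mean was 21.0% of theirs and the log2 fold change was -2.13. Without both wild-type male 1 and wild-type female 2 it was -2.03. The spread of wild-type Irx2 counts, as chi-square per degree of freedom (1 is what counting error alone gives), was 8.14 over the 4 libraries and 0.680 without wild-type male 1.

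Irx1, the neighbour of Irx2 in the cluster on chromosome 13 and also a gene of midbrain and hindbrain patterning, had 2.38 and 1.90 CPM in the wild-type males and 2.12 and 2.36 CPM in the wild-type females. The mutant male had 0.916 CPM, and the mutant females 1.99 and 1.42 CPM. The genotypes overlapped, because Setd2SRI/wt female 1 lay above wild-type male 2. The means were 2.19 ± 0.225 and 1.44 ± 0.539 CPM, with a log2 fold change of -0.65 ± 0.33 (SE). Wild-type Irx1 was the steadiest of the tested members, with a chi-square per degree of freedom of 0.180, and it showed no excess in wild-type male 1. Irx4, known as a gene of the ventricular heart muscle, had 4 counts in wild-type female 2, 1 in Setd2SRI/wt female 1 and 0 in the other 5 libraries. A count of 0 allows up to 0.187 CPM in wild-type female 1 and up to 0.714 CPM in the shallowest library.

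Irx3, which in chick sets the identity of the thalamus and of ventral spinal cord progenitors, was highest in another library than Irx2. The wild-type males had 1.38 and 2.14 CPM and the wild-type females 1.62 and 4.26 CPM, the last in the library with the highest pituitary sum. The mutants had 0.366 CPM in the male, 1.53 in female 1 and 0.948 in female 2, and female 1 overlapped the wild-type range. The means were 2.35 ± 1.31 and 0.949 ± 0.584 CPM, with a log2 fold change of -1.44 ± 0.45 (SE). Without wild-type female 2 the wild-type mean was 1.72 ± 0.388 CPM (SD, n = 3), the mutant mean was 55.3% of it in place of 40.4%, and the log2 fold change was -0.87. The chi-square per degree of freedom of wild-type Irx3 was 11.1 with that library and 0.631 without it. Irx3os, an antisense gene that overlaps Irx3, had 12 counts in all. The strand setting of the counting is not given in the sources used here. Reads from the stretch where this pair overlaps therefore cannot be told apart, nor can those from the overlap of Irx6 and Gm45505 (0 counts). Of the windows of 76 bases, 1.77% of those of Irx3 occurred in Irx3os and 1.6% of those of Irx6 in Gm45505.

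Irx5, which acts with Irx3 in heart and skeleton, had 0.941 and 0.476 CPM in the wild-type males and 1.00 and 1.57 CPM in the wild-type females. The mutant male had 0 counts and the mutant females had 0.613 and 0.237 CPM. As with Irx3, wild-type female 2 was the highest library, and the genotypes overlapped through wild-type male 2, which had 2 counts. The means were 0.997 ± 0.449 and 0.283 ± 0.309 CPM, with a log2 fold change of -2.04 ± 0.61 (SE). The 0 counts of the mutant male allow up to 0.550 CPM, more than was measured in wild-type male 2, so these libraries were not distinguishable at this depth. Irx6, known from bipolar cells of the mouse retina, had 1 to 7 counts per wild-type library and 0 to 3 per mutant library. Its means were 0.342 ± 0.189 and 0.201 ± 0.186 CPM, and the ranges overlapped widely.

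**Figure D2:**
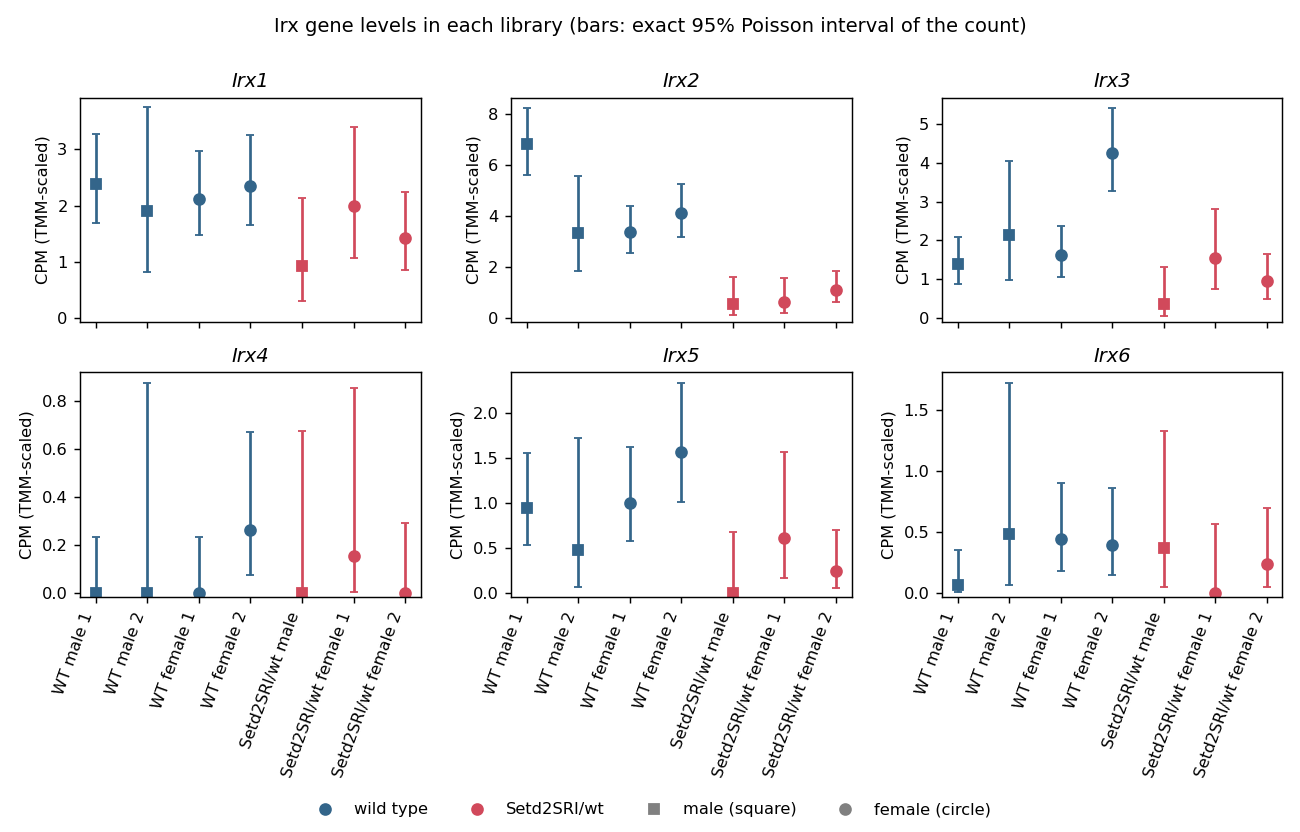
TMM-scaled CPM (y axis, from 0 in each panel) of the 6 Irx genes in each of the 7 libraries; wild type is blue, Setd2SRI/wt red, squares are males, circles females, and bars are exact 95% Poisson intervals of the count. For Irx2 the mutant libraries (0.550 to 1.11 CPM) lie below the wild-type libraries (3.33 to 6.84 CPM), and for the other genes the genotypes overlap.

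Ratios of counts within a library show how the members stood to each other. Those with Irx2 contain the values that chose the family and are given as a description. The counts of Irx2 over those of Irx1 gave 2.87 and 1.75 in the wild-type males and 1.59 and 1.75 in the wild-type females. The mutant male had a ratio of 0.600 and the mutant females 0.308 and 0.778, each below every wild-type library. The ratio of Irx3 to Irx1 ran from 0.579 to 1.81 in wild type and from 0.400 to 0.769 in the mutants, and that of Irx5 to Irx3 from 0.222 to 0.682 and from 0 to 0.400. Both overlapped. Irx2 made up 31.8% to 58.9% of the family's counts in wild type and 12.5% to 28.0% in the mutants. Summed over the 6 genes, the family had 8.33 to 13.0 CPM in wild type and 2.20 to 4.91 CPM in the mutants.

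**Figure D3:**
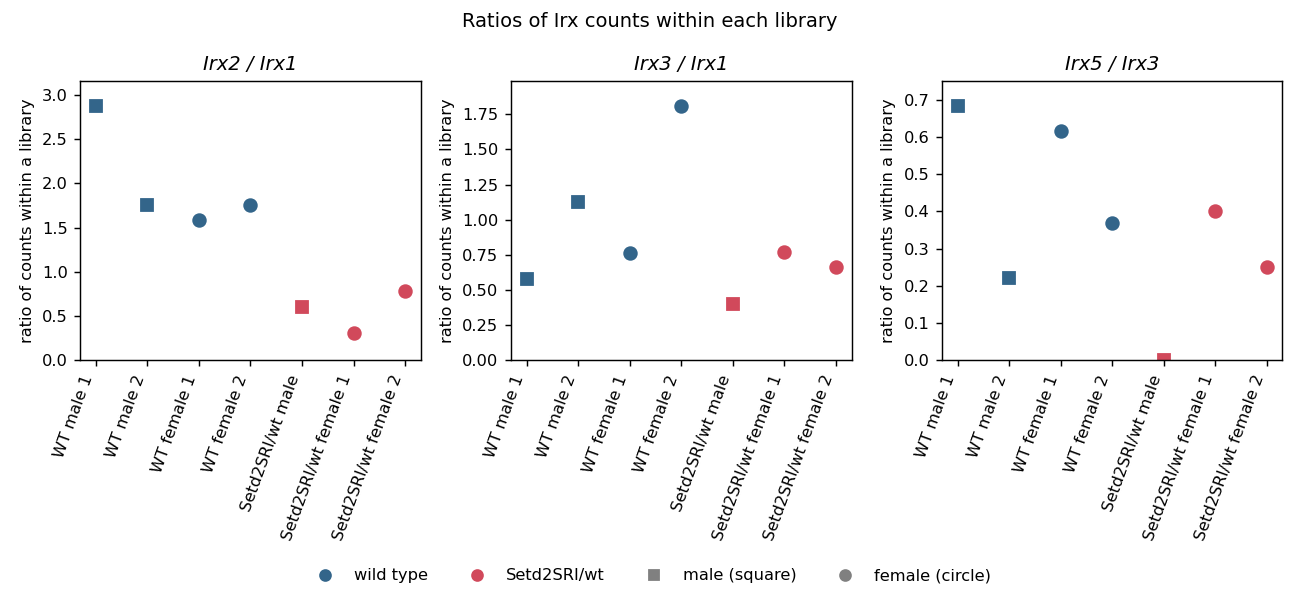
Ratio of counts between Irx genes within each library (y axis, linear from 0), with wild type in blue and Setd2SRI/wt in red, squares for males and circles for females. Irx2 over Irx1 is 1.59 to 2.87 in wild type and 0.308 to 0.778 in the mutants, while the other ratios overlap between genotypes.

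Sex was a contrast that the choice of the family did not use. In the edgeR fit 0 of the 4 tested members passed for sex (each with an adjusted p of 0.999), against 0.0463% of all genes tested. At an unadjusted p under 0.05 it was 1 member, Irx3, against 4.72% of all genes, and DESeq2 and limma-voom called 0 members. Irx3 had a mean of 1.30 CPM over the 3 males and 2.09 CPM over the 4 females, with a log2 fold change of male over female of -0.98 ± 0.44 (SE, unadjusted p = 0.0404). The sexes overlapped within wild type, and without wild-type female 2 the value was -0.38. The corresponding values were -0.84 ± 0.54 for Irx5, -0.21 ± 0.33 for Irx1 and 0.38 ± 0.33 for Irx2. The value of Irx2 was -0.32 without wild-type male 1.

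In the product of genotype and sex 0 of the 4 members passed, as did 0% of all genes tested, and the smallest unadjusted p was 0.173, for Irx5 (3.33% of all genes had one under 0.05). DESeq2 and limma-voom also called 0 members. This term rests on the only mutant male, which had the lowest level of Irx1, Irx2, Irx3 and Irx5 among the 7 libraries and a total of 5538908 counts.

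Genes beside the clusters showed whether the low mutant levels extended along the chromosome. Around Irx1, Irx2 and Irx4, 15 genes within 1 Mb of the cluster were tested. Their median log2 fold change was 0.06, beside 0.01 for all genes tested, and 4 were below 0, as were 48.6% of all genes tested. In edgeR and in DESeq2 0 of them passed, and 2 had an unadjusted p under 0.05, where 8.95% of all genes tested did. Ndufs6 and Mrpl36, mitochondrial genes 50.2 and 58.9 kb from Irx4, were at 31.8 ± 4.27 and 11.7 ± 1.07 CPM in wild type, and mutant levels were 34.9 ± 4.23 and 12.5 ± 0.204 CPM. In the same order of genotypes, Lpcat1 had 34.9 ± 2.38 and 36.4 ± 1.60 CPM, Clptm1l 78.3 ± 5.15 and 82.2 ± 7.39 CPM, and Tert, the telomerase gene, 2.17 ± 1.15 and 1.70 ± 0.383 CPM. Slc6a3, the dopamine transporter gene 267 kb from Irx4, had 27.9 ± 17.2 and 5.08 ± 2.38 CPM and a log2 fold change of -2.32 (adjusted p = 0.0783, edgeR). It was the 1 neighbour of the 15 on this side whose mutant libraries all lay below wild type, which was true of 4.08% of all genes tested.

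Around Irx3, Irx5 and Irx6, 17 neighbours were tested, with a median log2 fold change of -0.13. Of these 14 were below 0, beside 48.6% of all genes tested. All neighbours on this side, tested or not, summed to 521 to 538 CPM in wild type and 473 to 512 CPM in the mutants. Here too 0 passed in edgeR or DESeq2, and 1 (Crnde) had an unadjusted p under 0.05, where 8.95% of all genes tested did. Chd9, 744 kb away and named after its values were seen, was the 1 neighbour of the 17 with all mutant libraries below wild type (122 ± 3.99 and 106 ± 7.97 CPM). The same was true of 4.08% of all genes tested. Crnde, a long noncoding RNA gene that starts 1.5 kb from Irx5 on the other strand, had a wild-type mean of 1.12 ± 0.533 CPM and a mutant mean of 0.527 ± 0.306 CPM. The fitted difference was -1.18 ± 0.49 (SE) on the log2 scale (edgeR, adjusted p = 0.471). Like Irx5 it was highest in wild-type female 2, at 1.90 CPM, and lowest in the mutant male, at 0.183 CPM. Fto, whose introns hold enhancers of Irx3 and which lies 130 kb from it, had 149 ± 12.3 and 138 ± 16.3 CPM. Mmp2, Lpcat2 and the pseudogene Gm3272 had log2 fold changes of -0.13, 0.15 and -0.08. Rpgrip1l and Gm45428 had -0.16 and 0.53.

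**Figure D4:**
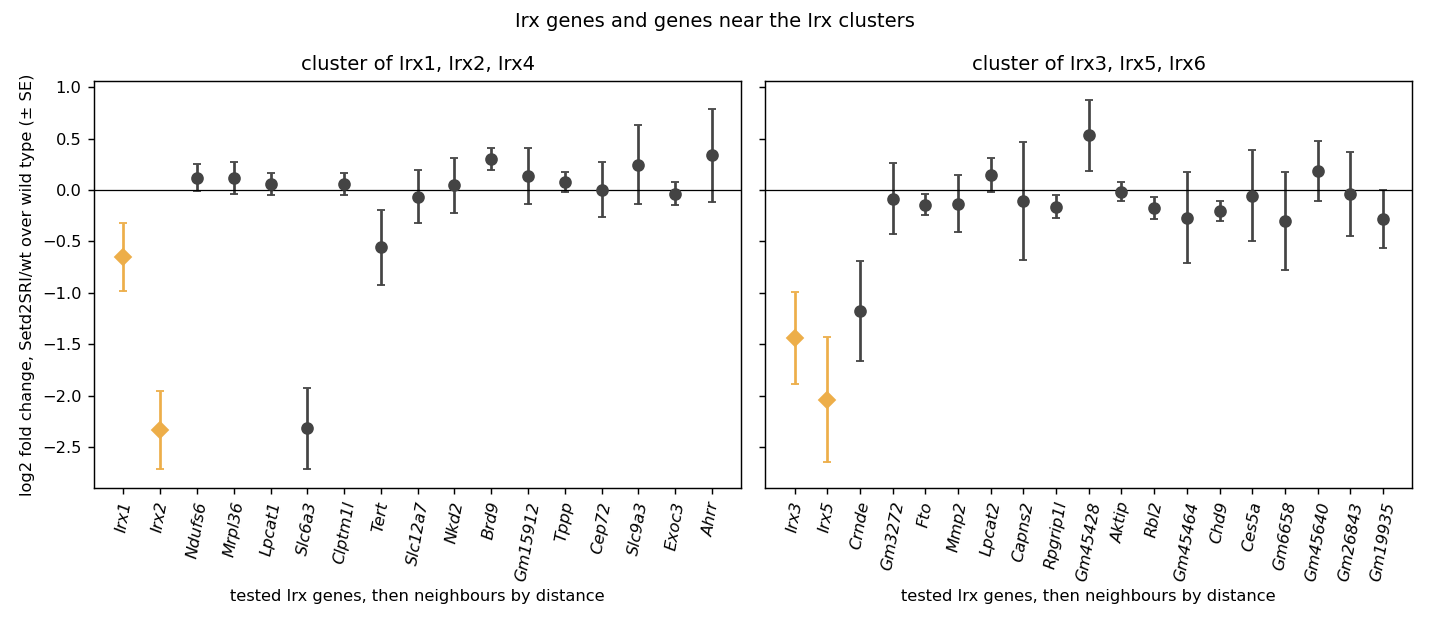
Fitted log2 fold change of Setd2SRI/wt over wild type (y axis, whiskers SE) for the tested Irx genes (yellow diamonds) and the tested genes within 1 Mb of each cluster (dark circles), ordered by distance from the nearest Irx gene. Most neighbours lie near 0, with 4 of 15 below 0 around Irx1, Irx2 and Irx4 and 14 of 17 around Irx3, Irx5 and Irx6. Slc6a3 (-2.32) and Crnde (-1.18) lie among the Irx genes.

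The gene nearest to Irx2 is the long noncoding RNA gene Gm20554, which starts 256 bases upstream of it and runs the other way. It had 31 counts in all and was not tested, and its means were 0.472 ± 0.212 CPM (wild type) and 0.165 ± 0.0160 CPM (mutants). The mutant libraries had 0.153 to 0.183 CPM, each under the level that 3 counts give (0.237 to 0.550 CPM). The small mutant SD thus does not show a precise level. The 250 bases before the Irx2 start fill nearly the whole gap between both genes, and they are shown because Irx2 is the member with the widest gap between the genotypes. They are from RefSeq on GRCm38.p6 (chr13:72628570-72628819, plus strand), with each CG in capitals.
Irx2 promoter: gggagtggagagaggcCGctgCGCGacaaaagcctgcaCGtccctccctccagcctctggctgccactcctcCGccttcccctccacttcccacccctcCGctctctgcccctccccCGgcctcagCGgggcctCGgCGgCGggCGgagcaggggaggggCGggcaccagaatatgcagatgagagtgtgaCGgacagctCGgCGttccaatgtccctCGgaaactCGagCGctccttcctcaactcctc
This window held 19 CG, against a median of 6 over 32851 promoter windows of the same length, and 82.1% of the windows held as many or fewer. The RefSeq windows of Irx3 and Irx4 held 13 and 22. The Irx3 window (chr8:91801655-91801904, minus strand) lies inside the GENCODE gene, which starts at 91802067. The Irx4 window (chr13:73260247-73260496, plus strand) runs past the GENCODE start at 73260479. The palindrome ACANNTGT, which the fly Iroquois protein Mirror binds, occurred 0 times in each of the 3 windows, and 6.31% of all windows hold it (as a palindrome it reads alike on both strands).

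The genes whose profile over the 7 libraries was nearest to that of a member were found by the root mean square difference of centred log2 CPM, among 15862 genes with a mean of at least 1 CPM. These profiles contain the genotype difference, so likeness to a member includes it. Irx2, whose own profile had a root mean square of 1.19 log2 units, was nearest to C130021I20Rik (0.441), Plekhf1 (0.481), Uncx (0.536), Calca (0.565) and Glra1 (0.582). Uncx encodes another homeodomain protein, Calca the neuropeptide CGRP, and Glra1 the alpha 1 subunit of the glycine receptor. Irx3 was nearest to Ankfn1 (0.227), Glp1r (0.242), Kcnj5 (0.260), Ak9 (0.275) and Gpc3 (0.279). Glp1r is the receptor of the hormone GLP-1 and Kcnj5 a potassium channel subunit. Irx1 was nearest to Kif26b (0.105), the glycine transporter gene Slc6a9 (0.126), Clec3b (0.138), Adamtsl3 (0.153) and 4930480K23Rik (0.155). The members were not each other's nearest genes: Irx1 and Irx2 differed by 0.923, Irx2 and Irx3 by 0.924 and Irx1 and Irx3 by 0.552. The ranks depended on the gene of reference. From Irx2, Irx1 and Irx3 ranked 230 and 231 of 15862. From Irx3, Irx1 ranked 211 and Irx2 10975. From Irx1, whose profile had a root mean square of only 0.406, Irx3 ranked 12868 and Irx2 15730. Irx5 had a mean under 1 CPM and was not profiled.

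Other TALE homeobox genes were spread around a fold change of 0. Of 12 such genes, which encode partners or relatives of the Iroquois proteins, 11 were tested, 0 passed (3 at an unadjusted p under 0.05), with a median log2 fold change of 0.01, 6 above and 5 below 0. Wild-type and mutant means were 160 ± 26.4 and 157 ± 4.42 CPM for Meis2 and 53.4 ± 2.54 and 62.2 ± 8.67 CPM for Pknox2. Among 20 genes of neural patterning, partners and antagonists of the Iroquois genes, 18 were tested, 0 passed (6 at an unadjusted p under 0.05), with a median of -0.66 and 16 below 0. Of all genes tested, 8.95% had an unadjusted p under 0.05 and 48.6% lay below 0. Dbx1 and Fgf8 were at 0 counts in every library. Of the genes known as antagonists, Olig2 had 30.5 ± 3.55 and 32.1 ± 3.56 CPM, Fezf2 23.1 ± 2.86 and 27.3 ± 2.09, and Six3 17.9 ± 6.24 and 16.8 ± 4.09.

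Lists of brain regions also differed between the genotypes in their medians, and their part in the Irx values was not tested. The lists share some genes, and in each of them 0 genes passed in edgeR or DESeq2. DESeq2 could call only genes to which it gave an adjusted p, and how many of a list had one is not reported here. Of 13 midbrain genes 10 were tested (6 at an unadjusted p under 0.05) and 9 were below 0, with a median log2 fold change of -1.37. Their summed level was 61.1 to 112 CPM in wild type and 55.3 to 72.3 CPM in the mutants, mostly from Nr4a2 (46.2 ± 8.23 and 48.9 ± 12.5 CPM) and Th (23.5 ± 12.5 and 8.02 ± 4.74 CPM), with En2 next (2.22 ± 0.788 and 2.01 ± 0.805 CPM). All 8 thalamus genes were tested (5 at an unadjusted p under 0.05) and 7 were below 0 (median -0.45), with sums of 331 to 373 CPM in wild type and 257 to 299 CPM in mutants. Rora had 113 ± 10.1 and 105 ± 8.81 CPM, Calb2 76.9 ± 14.1 and 42.5 ± 21.1 CPM and Ntng1 64.5 ± 8.73 and 51.8 ± 7.98 CPM. Of 10 cerebellum genes 8 were tested (5 at an unadjusted p under 0.05) and 7 were below 0 (median -0.68), with sums of 261 to 315 and 235 to 312 CPM. Its most abundant genes were Calb1 with 167 ± 17.4 and 186 ± 16.1 CPM, Zic1 with 66.7 ± 11.5 and 44.6 ± 14.3 CPM, and Cbln1 with 28.2 ± 7.38 and 18.04 ± 6.35 CPM. Calb1 was higher in the mutant mean, the other two lower. The 8 cortex and hippocampus genes (7 at an unadjusted p under 0.05) all lay above 0 (median 0.36), with sums of 300.1 to 391 CPM in wild type and 433 to 496 CPM in the mutants. The transcription factor genes Tbr1 and Neurod6 had 95.3 ± 12.1 and 119.8 ± 9.58 CPM, and 60.9 ± 8.75 and 80.9 ± 8.19 CPM. These counts stand beside 48.6% below 0 and 8.95% at an unadjusted p under 0.05 among all genes tested. The share of each region in a brain sample cannot be told apart from expression within it.

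**Figure D5:**
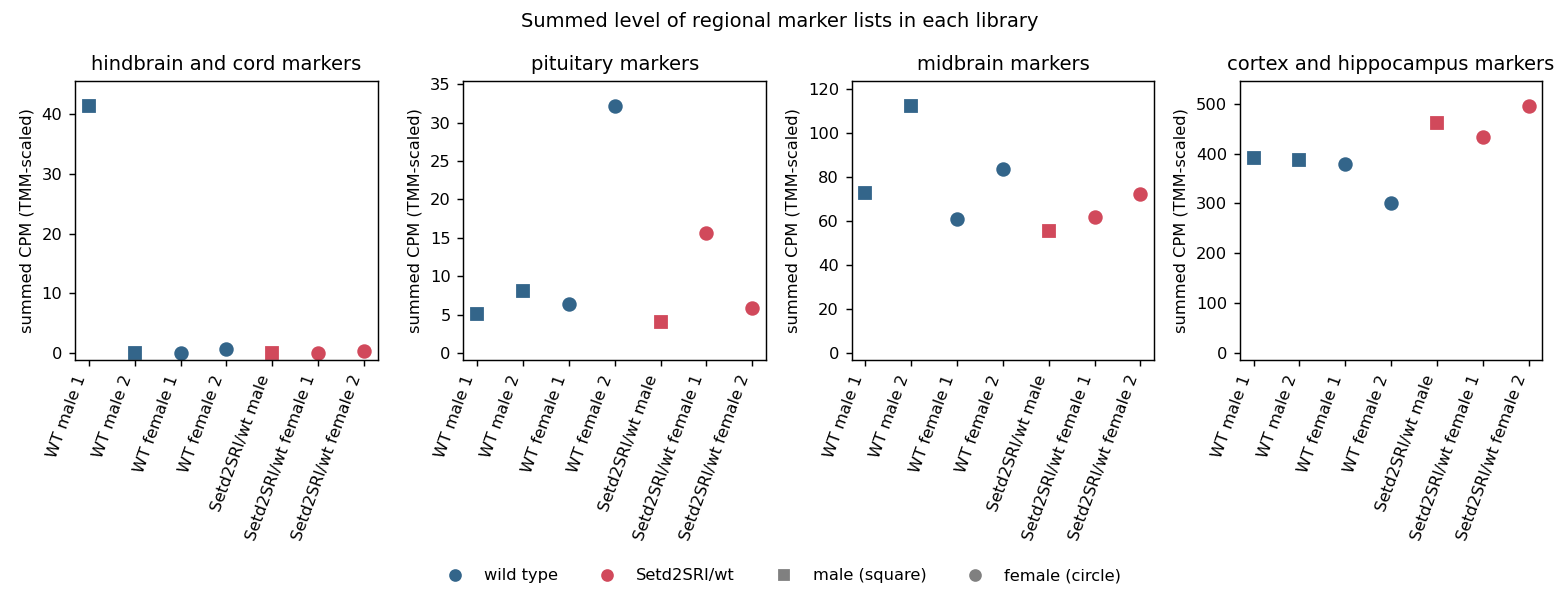
Summed TMM-scaled CPM (y axis) of 4 marker lists in each library, with wild type in blue and Setd2SRI/wt in red, squares for males and circles for females. Hindbrain and cord genes reach 41.4 CPM in wild-type male 1 only, pituitary genes reach 32.2 CPM in wild-type female 2, and cortex genes lie higher in the 3 mutants (433 to 496 CPM) than in wild type.

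Among tissues around the brain, the pituitary list had 5 of 11 genes tested, all 5 below 0 (median -1.09), with sums of 5.08 to 32.2 CPM in wild type and 4.03 to 15.6 CPM in the mutants. Of the hindbrain and cord list 0 of 15 genes were tested, and the mutants had sums of 0 to 0.316 CPM. Meninges and mesenchyme had a median of -0.11 over 9 of 10 genes (67.8 to 79.2 and 53.9 to 74.7 CPM), and cartilage and bone -0.32 over 4 of 8 genes (19.2 to 26.9 and 20.9 to 22.9 CPM). Olfactory epithelium had a median of -0.15 over 7 of 7 genes (226 to 284 and 247 to 277 CPM), and choroid plexus 0.22 over 6 of 6 (193 to 769 and 592 to 937 CPM). The pan-neuronal list had a median of 0.06 over 6 of 6 genes. In each of these lists 0 genes passed in edgeR or DESeq2. At an unadjusted p under 0.05 (edgeR) it was 2 of the 5 pituitary genes tested. The cartilage and bone list and the olfactory list had 1 each, and the other lists 0. Of all genes tested, 8.95% had such a p and 48.6% lay below 0.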

How the data were processed

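RNA of 7 newborn mouse brains (100 ng each) was sequenced as stranded, ribosome-depleted libraries with 76-base paired reads, per the labels' protocols. The authors deposited raw counts per gene, whole numbers that are not normalized. The submitters' processing notes name HISAT2, featureCounts, edgeR, FastQC and Trim Galore, with mm10 as the build. Their versions, the strand setting and the treatment of multi-mapping reads are not given in the sources used here. All 55536 identifiers and symbols matched GENCODE mouse release 21, which gave positions and exon lengths.

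Low genes were removed (filterByExpr), libraries were scaled by TMM, and a quasi-likelihood model of sex plus genotype was tested in edgeR 4.0.16 (R 4.3.3), with a product term added for the interaction. P-values were two-sided, adjusted by Benjamini-Hochberg over all genes tested and called under 0.05. The SE is the absolute log2 fold change over the square root of F, so it restates the test. Log2 CPM used a prior count of 2, and a count of 0 was given an upper limit of 3 counts per library. Each library is 1 animal, so p-values reflect the spread among these animals, litter effects included. The column of the mutant male was matched by genotype and sex, as its name differed slightly from the title.

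The members and lists were chosen with earlier results of these data known. Named genes followed a rule: all members, genes flanking or overlapping them, the 5 nearest profiles, the 3 most abundant genes of a list, and up to 6 near neighbours per cluster with a mean of at least 1 CPM. Some genes under this rule are not reported here. Alternatives were DESeq2 1.42.0, limma-voom (limma 3.58.1), other scalings, filters and dispersions, thinning, subsets by sex or genotype and leaving out libraries. A gene to which DESeq2 gave no adjusted p, such as Irx1, Irx3 and Irx5 for genotype, could not be called by it. The same holds for genes of the lists and for the neighbours, so a DESeq2 count of 0 covers only genes with an adjusted p. The DESeq2 share of 0.371% is over all genes tested, with or without one. Figures were drawn with matplotlib 3.10.9.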

Additional observations from a re-analysis of the deposited data

How the results depend on the processing

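Under the alternatives run, the genotype log2 fold change stayed negative for each tested member, from -2.94 to -2.01 for Irx2, -1.90 to -0.87 for Irx3, -2.75 to -1.69 for Irx5 and -0.86 to -0.36 for Irx1. The number of members called for genotype was 0 in the edgeR fit, and 1 with DESeq2 (Irx2), 1 with robust dispersion (Irx2), 3 with no filter (Irx2, Irx3 and Irx5) and 0 to 2 with 1 library left out. The 2 were Irx2 and Irx3 without wild-type female 1. In females only, the fit with the replicate number as a block called 1 member (Irx2) and 80 genes in all, against 0 members and 1 gene without the block. Deviations of same-numbered females correlated at -0.058 across genes, so the numbers were not taken to pair the animals. Over all genes, genotype calls numbered 3 of 17260, and of the same genes 64 with DESeq2, 3 with robust dispersion and 1 with limma-voom. They were 331 of 33585 with no filter, 0 with no sex term and 1 after thinning. With 1 library left out they numbered 0 to 110 (110 of 16404 without wild-type female 1). The cause was not tested. For sex and the product term 0 members were called under every alternative run, and over all genes the calls went up to 136 for sex (no filter, against 8) and up to 412 for the product term (against 0) without the 2 libraries of highest pituitary sum. The sex value of Irx1 was 0.047 after thinning. That of Irx2 ran from -0.32 to 0.59 with 1 library left out and was -0.22 without the libraries of highest Hox and pituitary sums. Leaving out those 2 libraries, or the 2 of highest pituitary sum, was chosen after seeing the data. A planned rule for pituitary transcripts, 10 times the median library, left out 0 libraries and was not run. Irx5 fell under the filter after thinning and in some reduced sets. Low counts limit Irx4, Irx5 and Irx6.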

Other observations

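A monoamine transporter gene lies near each Irx cluster, Slc6a3 (dopamine) 267 kb from Irx4 and Slc6a2 (noradrenaline) 279 kb from Irx6. Slc6a2 was singled out after its values were seen. Slc6a2 had 33 counts in all and was too low to be tested. Its wild-type mean was 0.520 ± 0.808 CPM (SD, n = 4) and its mutant mean 0.0263 ± 0.0456 CPM (SD, n = 3). The wild-type SD exceeded the mean, because most counts came from wild-type female 2, at 1.70 CPM. The ranges of the genotypes overlapped, at 0 to 1.70 CPM in wild type and 0 to 0.0790 CPM in the mutants.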
